A study of Rattus norvegicus with 9 samples.

Results

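The genes described here encode the proteins of the cytosolic ribosome in rat pXEN cells, cultured stem cells of the extraembryonic endoderm lineage that lines the early yolk sac. They were chosen by symbol, as genes named Rpl or Rps followed by a number and at most the letter a, l, x or y, or Rplp followed by a digit, with at least 10 gene-strand counts in at least 3 libraries. Among the 17315 genes counted, 79 matched the pattern and 76 met the count rule, 46 of the large subunit and 30 of the small subunit. All 76 were among the 9130 genes tested.

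All 9 RNA-seq libraries came from the line RX1, derived from the WKY rat strain, with 3 libraries in each of 3 media named T, LPE and CPE. T was a traditional medium, DMEM/MCDB on fibronectin at 100 ng/ml, with 2% FBS, 0.5 µM dexamethasone, β-mercaptoethanol, L-ascorbic acid, ITS, LA-BSA and 10 ng/ml each of Pdgf, Egf and Lif. LPE was free of serum and dexamethasone, DMEM/F12 with Neurobasal on collagen I at 10 µg/ml, with the N2 and B27 supplements, β-mercaptoethanol and the same 10 ng/ml of Lif, Pdgf and Egf. CPE had the composition of LPE with 1 µM Chir99021, a Gsk3 inhibitor, in place of Lif. All 3 media held Pdgf, Egf and β-mercaptoethanol, and a single line was used, so the values describe RX1. T differs from the serum-free media in serum, dexamethasone, basal medium, supplements and coating at once, and the parts of these cannot be told apart. Whether the 3 libraries of a medium were grown as separate cultures is not stated, and each p-value refers to the spread between libraries alone, which may be technical.

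A ribosome is built from a small subunit, which reads the mRNA, and a large subunit, which joins amino acids and holds the exit tunnel of the new protein. Each subunit holds ribosomal RNA and a set of proteins needed in near-equal numbers, and the genes for those proteins are among the most highly expressed in growing cells. In mammals their mRNAs begin with a run of pyrimidines, the 5′ TOP motif, through which mTORC1 signalling and the RNA-binding protein Larp1 control their translation and stability.

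The sequence at the transcript start is shown first because the motif, where present, lies there. RefSeq promoter windows (build GRCr8) were matched by symbol for 60 of the 76 genes. Of these 60, 43 had an unbroken run of at least 8 pyrimidines (C or T) within the 20 bases on either side of the annotated start. This is 71.7%, against 993 of the 7052 tested genes with a window, or 14.1%. The median longest run was 10 bases in the ribosomal protein genes and 5 in all 7052 genes. The windows below show this run for 7 genes whose levels are followed in the results, and Rpl11 as a gene without it. Each has 25 bases before the annotated start and 15 from the start onward, read on the gene's strand, and capitals mark a run of at least 8 pyrimidines.
Rps2, chr10:14251823-14251862, plus strand: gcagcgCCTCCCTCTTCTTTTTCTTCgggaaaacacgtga
Rpl4, chr8:73566452-73566491, plus strand: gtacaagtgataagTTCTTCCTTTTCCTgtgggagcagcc
Rps27, chr2:177964592-177964631, minus strand: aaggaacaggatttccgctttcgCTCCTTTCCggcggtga
Rplp1, chr8:71290858-71290897, minus strand: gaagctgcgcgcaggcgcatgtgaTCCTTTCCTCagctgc
Rpl19, chr10:83519039-83519078, plus strand: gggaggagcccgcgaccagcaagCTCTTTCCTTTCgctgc
Rps28, chr7:15311319-15311358, minus strand: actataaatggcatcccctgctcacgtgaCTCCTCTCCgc
Rpl10, chrX:157205825-157205864, plus strand: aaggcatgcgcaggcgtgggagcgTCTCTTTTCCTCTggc
Rpl11, chr5:153560788-153560827, minus strand: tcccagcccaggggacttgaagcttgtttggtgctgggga

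The longest run near the start was 20 bases in Rps2, 14 in Rpl4, 13 in Rpl10, 12 in Rpl19, 10 in Rplp1 and 9 in both Rps27 and Rps28, while Rpl11 had no run longer than 3. For some genes the start in the table is that of a transcript shorter or longer than the gene record, so a window without a run says only that these letters are not at that start. A counted run may lie before or after the annotated start, so it is not in itself a 5′ TOP motif. Other motifs were searched in the full windows, which hold 250 bases before and 50 after the start, on both strands. The Ets motif CCGGAAG was in 20 of the 60 ribosomal protein windows (33.3%) and in 20.3% of all 7052 windows. AAGATGGC, the Yy1 motif, was in 5 (8.33%, against 6.37%). The E-box CACGTG, bound by Myc, was in 5 (8.33%, against 9.88%). The GC box GGGCGG, bound by Sp1, was in 34 (56.7%, against 65.9%), and the TATA box TATAAA was in 7 (11.7%, against 5.96%). These are matches of letters, not sites of binding.

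Reads assigned to genes numbered 1698764 to 2161228 per library in T, 3119049 to 3233526 in LPE and 3127352 to 4418465 in CPE. The tables count reads that map to 1 place, and reads that map to several places, which enter no gene, made up 64.9% to 67.6% of all reads in T, 54.2% to 59.9% in LPE and 51.7% to 58.2% in CPE. Ribosomal protein genes have many near-identical processed copies in mammalian genomes, so their counts are too low to an unknown degree that can differ by gene. The part that this difference in multi-mapping reads between media has in the results was not tested. The endoderm markers Gata4, Gata6, Sox17, Sox7, Pdgfra, Foxa2 and Dab2 were all detected in every library, Gata4 at 787 to 996 CPM (counts scaled to library size with TMM factors). Sox7 was low, at 1.28 CPM in LPE replicate 1. In the edgeR test described below, Gata6 and Foxa2 were higher than in T in both serum-free media, and Pdgfra was lower in both. In CPE, Sox17 and Dab2 were also lower than in T and Sox7 was higher. Of 7 fibroblast markers, Col1a2, Dcn, Lum and Postn were at 0 in all 9 libraries. Col1a1, Col3a1 and Thy1 gave a summed level, scaled to the total gene counts without TMM factors, of 1.39 to 33.0 CPM in T, 0 in LPE and 0 to 6.40 in CPE, the CPE counts being Thy1 alone.

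Ribosomal protein genes took a larger share of the gene counts in T than in either serum-free medium. They held 8.44%, 7.20% and 8.40% of the counts of the T libraries against 5.63%, 5.43% and 5.51% in LPE, and 5.62%, 5.70% and 5.62% in CPE. Each T library lay above all 6 serum-free libraries, and LPE and CPE overlapped. The means were 8.01% ± 0.706 in T, 5.52% ± 0.0973 in LPE and 5.64% ± 0.0455 in CPE (SD, n = 3 each). The 95% Wilson interval of a library, which covers counting error only, was for example 7.16% to 7.24% for T replicate 2. In bulk RNA, less RNA per cell and fewer cells with a high level cannot be told apart.

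The same fall was present in both subunits. Large subunit genes held 4.67% to 5.39% of the counts in T, 3.55% to 3.65% in LPE and 3.65% to 3.69% in CPE. Small subunit genes held 2.88% ± 0.307, 1.93% ± 0.0511 and 1.97% ± 0.0342. The ratio of large to small subunit counts was 1.78 ± 0.0559 in T against 1.86 ± 0.0308 in LPE and 1.86 ± 0.0295 in CPE, and the ranges of T and the serum-free media overlapped.

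The difference is relative to the other gene counts. As a share of all sequenced reads, with unmapped, multi-mapping and unassigned reads included, the same genes had 0.667% ± 0.0818 in T, 0.668% ± 0.0652 in LPE and 0.744% ± 0.0882 in CPE. On this measure the media overlapped. Within T, replicate 2 stood apart, since 69 of the 76 genes were below the mean of the other T libraries, by a median of 0.31 on the log2 scale, while the median over all genes of at least 100 CPM moved by 0.01. Without it the T share was 8.42%.

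**Figure D1:**
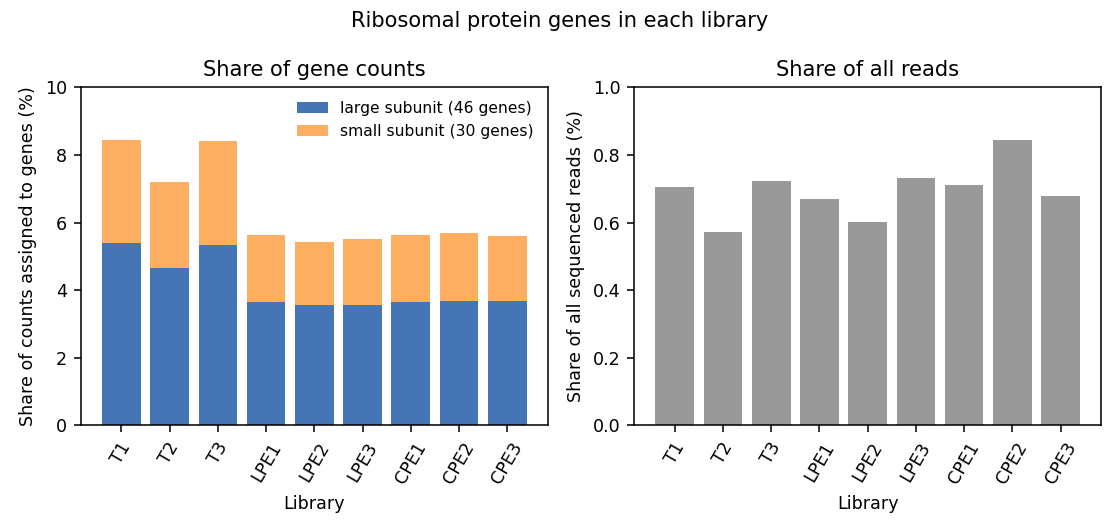
Share of each library's gene counts on the 46 large and 30 small subunit genes (left, stacked bars, percent) and share of all sequenced reads on the same 76 genes (right, percent), 1 bar per library. On the left every T library, at 7.20% or more, is above every serum-free library, at 5.70% or less, and on the right the media overlap.

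LPE against T sets the serum-free medium beside the traditional one, with Lif, Pdgf and Egf in both. More ribosomal protein genes were lower in LPE than were higher. In the edgeR quasi-likelihood test across all genes, a gene was called at a Benjamini-Hochberg adjusted p under 0.05. Of the 76 genes 50 fell, 4 rose and 22 were not called, whereas 29.7% of all genes tested were called, 14.7% lower and 15% higher. Among genes of at least 100 CPM, which are better measured, 27.8% were called lower and 26.2% higher, and 50 of the 69 ribosomal protein genes at that level fell and 2 rose. The median log2 fold change was -0.51, a level 1.42-fold lower, beside -0.03 over all genes.

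By subunit, 29 of 46 large subunit genes fell and 2 rose (median log2 fold change -0.46), and 21 of 30 small subunit genes fell and 2 rose (median -0.53). In 46 of the 76 genes every LPE library was below every T library, against 25.4% of all genes tested. Without T replicate 2, 51 genes fell and the median was -0.58. Leaving out other libraries gave 37 to 46 genes that fell, the lowest without T replicate 1.

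CPE against T asks the same of the medium with Chir99021. Of the 76 genes 47 fell, 6 rose and 23 were not called, whereas 32.1% of all genes tested were called, 15.3% lower and 16.8% higher. Among genes of at least 100 CPM the background was 29.5% lower and 27.9% higher, and 47 of 69 ribosomal protein genes fell and 5 rose. The median log2 fold change was -0.55, a level 1.46-fold lower, beside -0.01 over all genes. Large subunit genes fell in 31 of 46 and rose in 3, with a median of -0.58, and small subunit genes fell in 16 of 30 and rose in 3, with a median of -0.51. In 47 genes every CPE library was below every T library, against 28.1% of all genes. Without T replicate 2, 51 genes fell and 5 rose. Both comparisons share the T libraries and are not independent of each other.

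**Figure D2:**
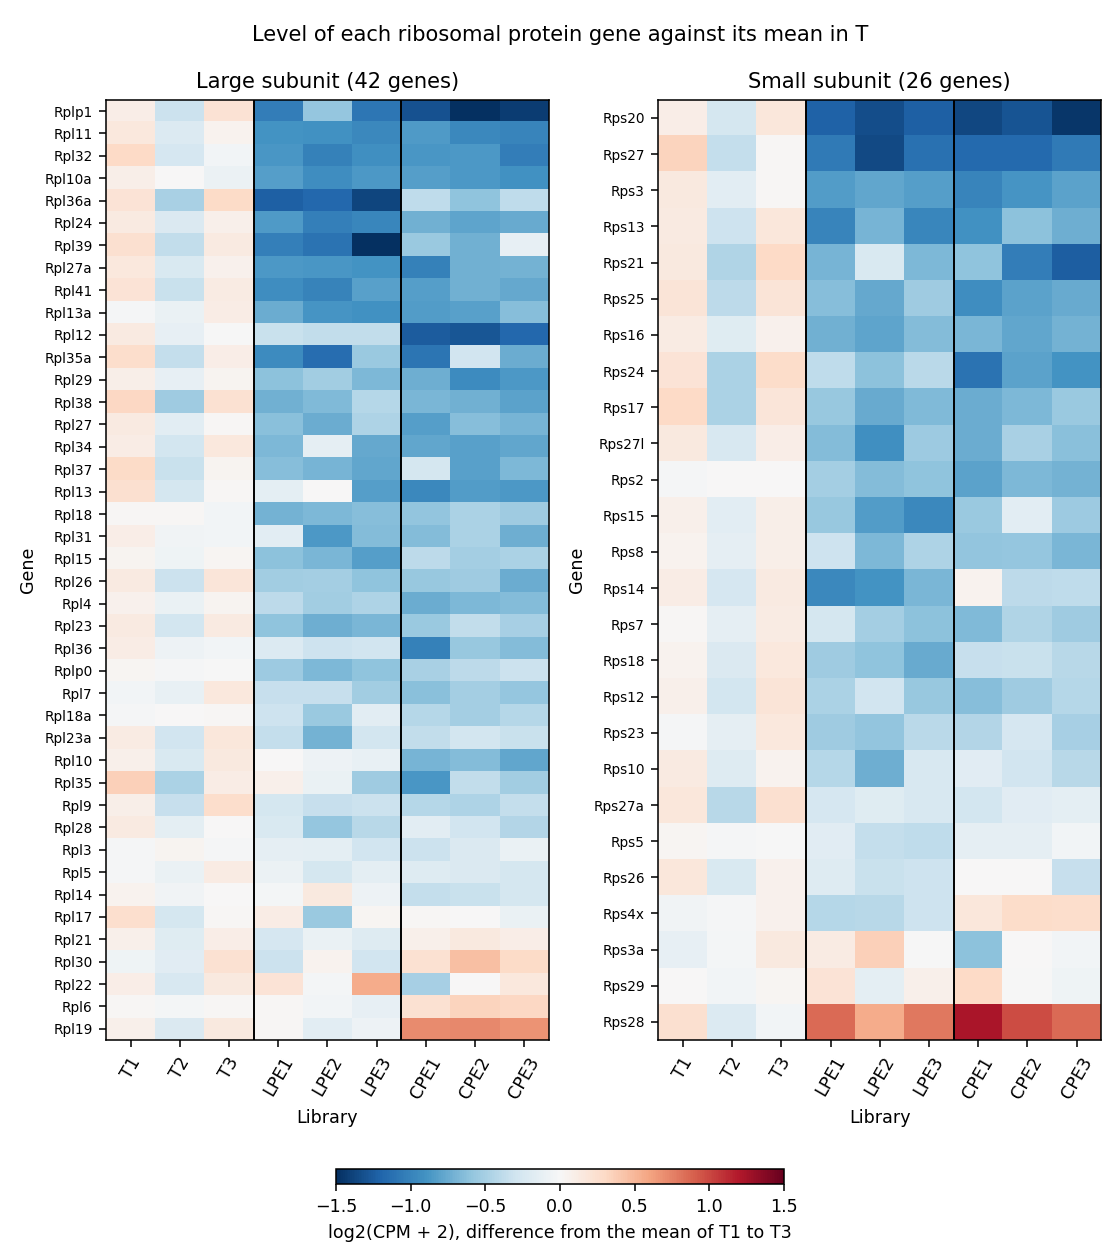
Level of 68 of the 69 ribosomal protein genes of at least 100 CPM in each library, as the difference in log2(CPM + 2) from the gene's mean over T1 to T3, with blue lower and red higher, 42 large subunit genes on the left and 26 small subunit genes on the right, ordered by their change. Most rows are blue in the 6 serum-free columns, T2 is paler or bluer than T1 and T3, and Rps28 is red in LPE and CPE while Rpl19 is red in CPE.

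Small subunit genes gave some of the strongest falls. Rps20, a protein of the head of the small subunit, stood at 2107, 1642 and 2212 CPM in T, 846, 784 and 840.4 in LPE, and 763, 802 and 718 in CPE. All 3 T libraries were far above any serum-free library, and LPE and CPE overlapped. Rps20 was 2.41-fold lower in LPE (log2 fold change -1.27, SE 0.11, edgeR adjusted p = 5.49e-07) and 2.61-fold lower in CPE (-1.38, SE 0.11, edgeR adjusted p = 2.13e-07).

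Rps27, which encodes a zinc-finger protein of the small subunit, stood at 1023, 636 and 827 CPM in T, 390.0, 317 and 372 in LPE, and 362, 361 and 389 in CPE. T replicate 2 was the lowest T library but still above every serum-free library. The gene was 2.30-fold lower in LPE (-1.20, SE 0.15, edgeR adjusted p = 1.88e-05) and 2.24-fold lower in CPE (-1.16, SE 0.15, edgeR adjusted p = 1.97e-05). Its paralog Rps27l, a target of p53 in human cells, stood at 361 ± 51.5 CPM in T against 221 ± 28.9 in LPE and 234 ± 20.9 in CPE. It too fell, 1.64-fold in LPE (edgeR adjusted p = 0.0014) and 1.55-fold in CPE (edgeR adjusted p = 0.003).

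Rps2, at the channel where the mRNA enters, varied little between replicates. It had 3784, 3846 and 3854 CPM in T, 2679.9, 2447 and 2528 in LPE, and 2199, 2396 and 2334 in CPE. Every serum-free library was below every T library, by a log2 fold change of -0.59 in LPE (edgeR adjusted p = 2.13e-05) and -0.73 in CPE (edgeR adjusted p = 2.01e-06). Rps6, the classic substrate of the S6 kinases downstream of mTORC1, had 18.9 ± 6.08 CPM in T against 10.5 ± 9.08 in LPE and 14.3 ± 8.59 in CPE, with LPE replicate 2 at 0. The media overlapped and no comparison was called at these low counts.

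In the large subunit, Rpl4, whose protein lines part of the exit tunnel, had 4459.7, 3991 and 4407 CPM in T, 3262, 2971 and 3094 in LPE, and 2561, 2678 and 2722 in CPE. The 3 media did not overlap. Rpl4 was 1.38-fold lower in LPE (edgeR adjusted p = 0.000214) and 1.62-fold lower in CPE (edgeR adjusted p = 4.01e-06). The difference between CPE and LPE, a log2 fold change of -0.23, was called at an edgeR adjusted p of 0.0414 but was lost without LPE replicate 1 (adjusted p = 0.123) and in 4 of the other leave-one-out fits.

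Rpl5 and Rpl11 form, with the 5S rRNA, a particle that can bind Mdm2 and stabilise p53. Rpl11 had 1884, 1456 and 1746 CPM in T, 901, 894 and 862 in LPE, and 932, 863 and 844 in CPE. All serum-free libraries were far below T, by 1.91-fold in LPE (edgeR adjusted p = 5e-06) and 1.93-fold in CPE (edgeR adjusted p = 3.55e-06). Its partner Rpl5 had 2040.2, 1936 and 2248 CPM in T, 1954, 1728 and 1866 in LPE, and 1805, 1788 and 1721 in CPE. T and LPE overlapped for Rpl5 (log2 fold change -0.17, edgeR adjusted p = 0.15). CPE was 1.17-fold below T (edgeR adjusted p = 0.0459), a call that was lost with DESeq2 size factors (adjusted p = 0.0521) and in 5 of 6 leave-one-out fits.

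Rpl38, needed in the mouse for the translation of several Hox mRNAs, had 610.0, 339 and 578 CPM in T, 298, 311 and 366 in LPE, and 306, 299 and 282 in CPE. T replicate 2 lay within the range of LPE. The gene was 1.57-fold lower in LPE (edgeR adjusted p = 0.00954) and 1.72-fold lower in CPE (edgeR adjusted p = 0.00249). The call in LPE was lost without T replicate 1 (edgeR adjusted p = 0.0643) or without T replicate 3 (0.0554). Rpl22, an RNA-binding protein of the large subunit, had 240.5 ± 34.1 CPM in T against 287 ± 60.8 in LPE and 226 ± 51.4 in CPE. The media overlapped and no comparison called it.

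The stalk of the large subunit, which recruits the elongation factors, is made of Rplp0 at its base with Rplp1 and Rplp2 bound to it, and Rpl12 lies beside it. Rplp1 had 1874, 1405 and 2039 CPM in T, 851, 1168 and 828 in LPE, and 704, 612 and 654 in CPE. The media did not overlap, although LPE replicate 2 stood above the other LPE libraries. Rplp1 was 1.87-fold lower in LPE (log2 fold change -0.90, SE 0.14, edgeR adjusted p = 0.000222) and 2.70-fold lower in CPE (-1.43, SE 0.15, edgeR adjusted p = 2.66e-06). The difference between CPE and LPE (-0.53, edgeR adjusted p = 0.017) was lost without LPE replicate 2 (adjusted p = 0.0702), without CPE replicate 2 (0.0774) or without CPE replicate 3 (0.0542).

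Rplp0 fell too, from 3614, 3513 and 3533 CPM in T to 2436, 2221 and 2346 in LPE and 2533, 2717 and 2835 in CPE. CPE libraries were all above LPE libraries for Rplp0, the reverse of Rplp1. The fold was 1.52 lower in LPE (edgeR adjusted p = 1.96e-05) and 1.32 lower in CPE (edgeR adjusted p = 0.00065). CPE against LPE was not called (log2 fold change 0.21, edgeR adjusted p = 0.0636, and 0.0407 without CPE replicate 1). With DESeq2 in place of edgeR this difference was called (log2 fold change 0.20, DESeq2 adjusted p = 0.00738). Rplp2 was barely counted, with 3, 5 and 2 counts in T, 20, 24 and 7 in LPE, and 0, 15 and 1 in CPE. These counts are too few to compare the media.

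Rpl12 fell stepwise across the media. It had 1476, 1232 and 1337 CPM in T, 1066, 1037 and 1045 in LPE, and 567, 551 and 595 in CPE. The 3 media did not overlap, and CPE was far below both others. The fall from T was 1.28-fold in LPE (log2 fold change -0.36, SE 0.09, edgeR adjusted p = 0.00667, and 0.0512 without T replicate 1) and 2.36-fold in CPE (-1.24, SE 0.09, edgeR adjusted p = 1.31e-07). CPE was 1.84-fold below LPE (-0.88, SE 0.09, edgeR adjusted p = 7.4e-06).

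A few genes rose. Rps28, which lies near the mRNA exit of the small subunit, had 267, 197 and 221 CPM in T, 411, 333 and 392 in LPE, and 530.2, 449 and 411 in CPE. Every serum-free library was above every T library. It was 1.66-fold higher in LPE (edgeR adjusted p = 0.00105) and 2.03-fold higher in CPE (edgeR adjusted p = 4.93e-05). Rpl8, a protein close to the peptidyl transferase centre, had 50.2, 43.4 and 52.1 CPM in T, 75.4, 105 and 97.8 in LPE, and 115, 114 and 114 in CPE. T was the lowest medium without overlap, with a 1.90-fold rise in LPE (edgeR adjusted p = 0.00195) and a 2.35-fold rise in CPE (edgeR adjusted p = 0.000166).

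Rpl39l, a paralog of the tunnel protein Rpl39 that is best known from the testis, had few counts in T and more in LPE. It had 3.27, 2.90 and 1.86 CPM in T, 17.3, 20.8 and 18.3 in LPE, and 5.90, 3.63 and 13.2 in CPE. All LPE libraries were above all others, and the spread in CPE was wide. It met the count rule only through the 6 serum-free libraries, having 6, 5 and 4 counts in T, so its selection favoured a rise over T. Its fold, 6.97 in LPE, is given as a description, and its call among the genes that rose is no support for a change.

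**Figure D3:**
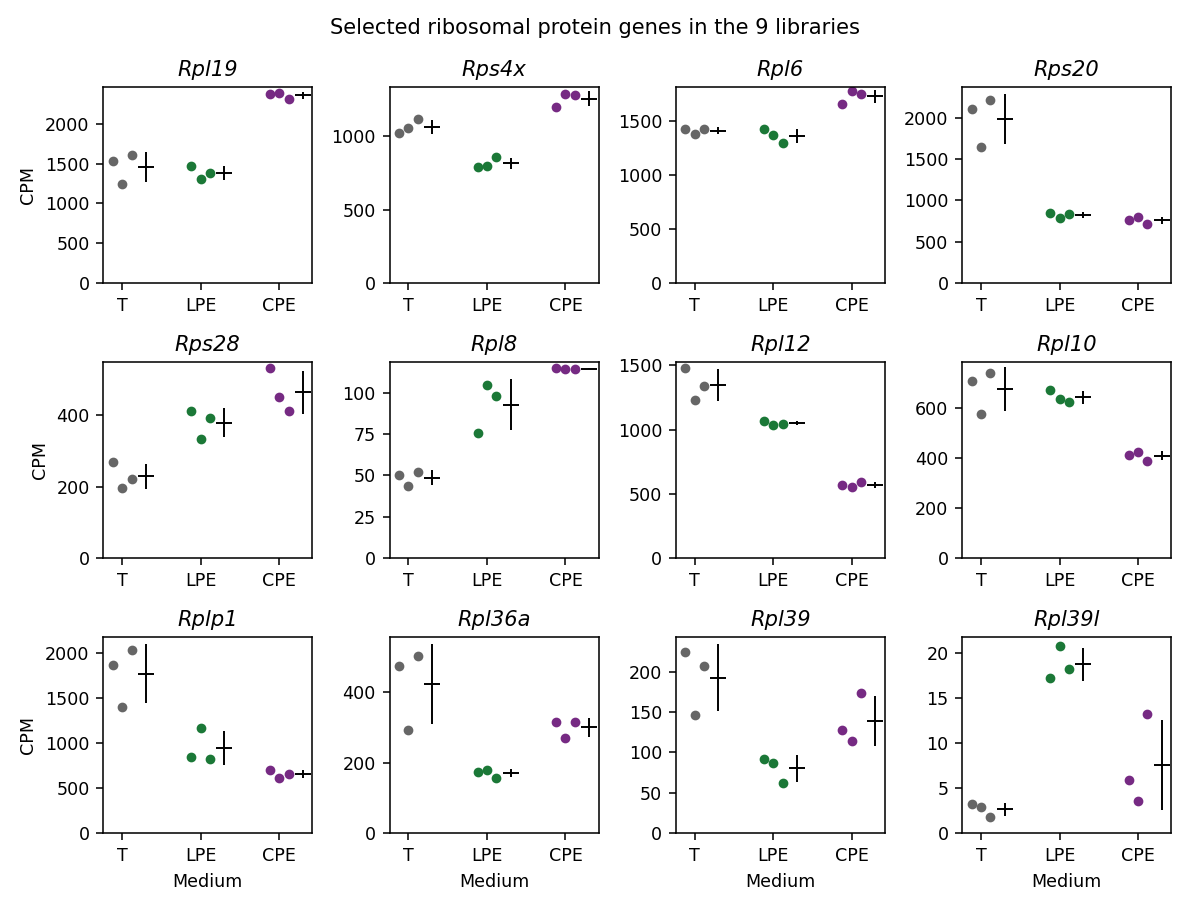
CPM of 12 ribosomal protein genes in each library (points, 3 per medium), with the mean and SD beside them (cross and bar), every axis starting at 0. Rps28 and Rpl8 are lowest in T, Rps20 and Rplp1 are highest in T, Rpl19, Rps4x and Rpl6 are highest in CPE, Rpl12 and Rpl10 are lowest in CPE, and Rpl36a and Rpl39 are lowest in LPE.

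CPE against LPE sets Chir99021 beside Lif, with the rest of the medium alike as far as the labels say. Most ribosomal protein genes did not pass the test. Of the 76 genes 8 rose, 8 fell and 60 were not called, beside 17.8% of all genes tested that were called, 9.56% higher and 8.23% lower. Among genes of at least 100 CPM the background was 16.3% higher and 15.3% lower, and 8 of 69 ribosomal protein genes rose and 8 fell (11.6% each). By subunit, 6 of 46 large subunit genes rose and 7 fell, and 2 of 30 small subunit genes rose and 1 fell. The median log2 fold change was 0.00, beside 0.01 over all genes. The count of calls was close to the background of all genes tested and, at 100 CPM or more, below it. Of the 16 calls, 7 held in every leave-one-out fit.

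Rpl19, a protein that also reaches across to the small subunit, was highest in CPE. It had 1528, 1246 and 1609 CPM in T, 1474, 1303 and 1383 in LPE, and 2377, 2388 and 2309.9 in CPE. T and LPE overlapped, and every CPE library was above both. Rpl19 was 1.70-fold higher in CPE than in LPE (log2 fold change 0.77, SE 0.10, edgeR adjusted p = 4.69e-05) and 1.61-fold higher than in T (0.69, SE 0.10, edgeR adjusted p = 5.23e-05). Rpl6, named after its values were seen, followed the same order, with 1432, 1382 and 1432 CPM in T, 1427, 1377 and 1299 in LPE, and 1664, 1777 and 1754 in CPE. Rpl6 was 1.22-fold above T (edgeR adjusted p = 0.00998) and 1.27-fold above LPE (edgeR adjusted p = 0.00647).

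Rpl36a and Rpl39 were lowest in LPE. Rpl36a, near the exit site of the large subunit, had 474, 294 and 502 CPM in T, 175, 180.3 and 158 in LPE, and 316, 269 and 315 in CPE. LPE lay below both other media and CPE overlapped T through T replicate 2. The gene was 2.48-fold lower in LPE than in T (log2 fold change -1.31, SE 0.17, edgeR adjusted p = 3.54e-05) and 1.75-fold higher in CPE than in LPE (0.81, SE 0.17, edgeR adjusted p = 0.00319). CPE against T was called lower (-0.50, edgeR adjusted p = 0.031) but not in 5 of the 6 leave-one-out fits, for example without T replicate 1 (0.135).

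Rpl39 lines the exit tunnel near its end. It had 224, 146 and 207 CPM in T, 92.4, 86.7 and 61.9 in LPE, and 128, 114 and 174 in CPE. LPE was again below both others without overlap. Rpl39 was 2.40-fold lower in LPE than in T (edgeR adjusted p = 0.000373), and the 1.72-fold higher level in CPE than in LPE (edgeR adjusted p = 0.0169) was lost without LPE replicate 3 (0.0697) or CPE replicate 3 (0.0914).

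Rps4x, the X-linked form of a small subunit protein, fell in LPE and not in CPE. It had 1020.4, 1052 and 1114 CPM in T, 786, 796 and 855 in LPE, and 1193, 1285 and 1279 in CPE. The 3 media did not overlap. Rps4x was 1.31-fold lower in LPE than in T (log2 fold change -0.39, SE 0.09, edgeR adjusted p = 0.00305) and 1.54-fold higher in CPE than in LPE (0.62, SE 0.09, edgeR adjusted p = 0.000118). Its rise above T in CPE (0.24, SE 0.09, edgeR adjusted p = 0.0445) was lost in 5 of 6 leave-one-out fits, for example without T replicate 1 (0.181). The rise was also lost with no filter on low counts (edgeR adjusted p = 0.105).

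Rps14, a small subunit protein whose loss underlies a human anaemia, had 498, 387 and 505 CPM in T, 234, 246 and 285 in LPE, and 477, 351 and 353 in CPE. CPE overlapped T, and LPE was below both. The gene was 1.82-fold lower in LPE than in T (edgeR adjusted p = 0.000393) and 1.54-fold higher in CPE than in LPE (edgeR adjusted p = 0.00697).

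Rpl10, which joins the large subunit late in its assembly, was lowest in CPE. It had 709.9, 574 and 742 CPM in T, 672, 636 and 623 in LPE, and 413, 425 and 390.4 in CPE. T and LPE overlapped and CPE was below both. The fall in CPE was 1.57-fold from LPE (log2 fold change -0.65, SE 0.11, edgeR adjusted p = 0.000586) and 1.65-fold from T (-0.72, SE 0.11, edgeR adjusted p = 0.000113). Rpl13, a large subunit protein, had 506 ± 88.4 CPM in T against 412 ± 116 in LPE and 270.0 ± 12.5 in CPE. Rpl13 fell 1.87-fold from T to CPE (edgeR adjusted p = 0.00116), and its call against LPE (-0.61, edgeR adjusted p = 0.0258) was lost in 5 of 6 leave-one-out fits, for example without LPE replicate 2 (0.0954).

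The promoter table places Rpl36a, Rpl39, Rps4x and Rpl10 on the X chromosome. In LPE against T, 78 of the 222 tested genes it places there were called lower and 10 higher, beside 974 and 1068 of 6830 genes elsewhere, and in CPE against LPE 75 were called higher and 11 lower, beside 589 and 584. Rpl36a, Rpl39 and Rps4x changed in the more frequent direction in both comparisons. Rpl10 was not called in LPE against T (log2 fold change -0.07, edgeR adjusted p = 0.679) and was lower in CPE than in LPE (-0.65). The part of the X chromosome pattern in the changes of Rpl36a, Rpl39, Rps4x and Rpl10 was not tested.

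The other calls between CPE and LPE were named after their values were seen, and each was lost in at least 1 leave-one-out fit. Rpl30 was higher in CPE (log2 fold change 0.51, edgeR adjusted p = 0.0168, and 0.0756 without CPE replicate 2, 0.0598 without LPE replicate 1 and 0.0617 without LPE replicate 3). Rpl21 was higher too (0.29, edgeR adjusted p = 0.043), a call lost in 5 of 6 leave-one-out fits, for example without CPE replicate 2 (0.122), under the replicate block (0.0659) and with no filter on low counts (0.0648). Rps24 was lower (-0.47, edgeR adjusted p = 0.0449), a call also lost in 5 of 6, for example without CPE replicate 1 (0.164). Rpl36 (-0.47, edgeR adjusted p = 0.015) was lost without CPE replicate 1 (0.0545). Rpl14 (-0.34, edgeR adjusted p = 0.0172) was lost without CPE replicate 2 (0.0537) or LPE replicate 2 (0.0553).

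**Figure D4:**
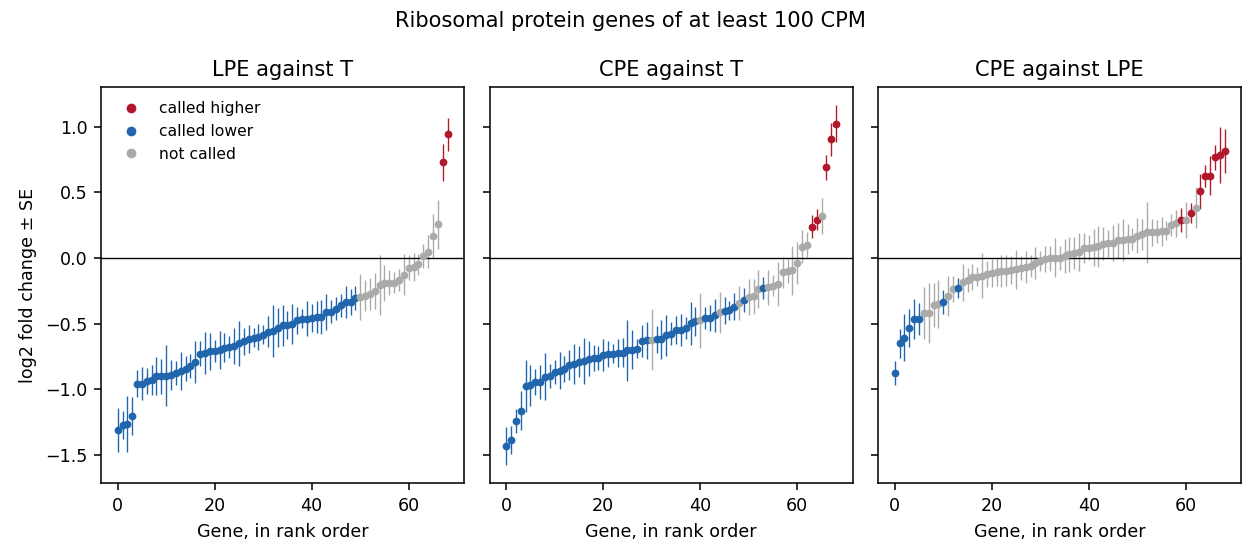
Log2 fold change with its standard error for the 69 ribosomal protein genes of at least 100 CPM, ranked within each comparison (x axis, rank), with red called higher, blue called lower and grey not called at an edgeR adjusted p under 0.05. In LPE and CPE against T most points lie below 0 and 50 and 47 of them are blue, while CPE against LPE is spread around 0 with 8 red and 8 blue.

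The levels were also measured against one another, by scaling every library to the summed counts of the 76 genes, which takes the shared fall out. This scaling raised the median of all genes by 0.51 in LPE and 0.50 in CPE against T. It called 15 genes higher and 14 lower in LPE, beside 4 and 50 on the scale of all genes, and likewise 15 and 14 in CPE, beside 6 and 47. On the scale of the ribosomal protein genes alone, Rps28 was higher by 1.25 in LPE and 1.53 in CPE, and Rpl8 by 1.45 and 1.74 (log2, all relative to T). On that scale Rps20 was lower by a log2 fold change of -0.75 in LPE and -0.87 in CPE, and Rps27 by -0.68 and -0.65. These 4 genes passed the test against T in both serum-free media on either scale. Rpl19 was higher than the others by 0.45 in LPE and 1.20 in CPE on that scale, whereas on the scale of all genes LPE did not call it.

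Genes at the edge of the count rule add little. Just inside it, Rplp2 had at least 10 counts in 3 libraries, Rps9 and Rpl39l in 6, Rpl37a in 7 and Rps6 in 8. Just outside, Rpl7a had 11, 5 and 6 counts in T, 0, 1 and 6 in LPE, and 3, 15 and 9 in CPE. Rps19, mutated in a human anaemia, had 4, 2 and 1 counts in T, 0 in each LPE library, and 15, 6 and 2 in CPE. Rpl3l, a paralog of Rpl3 known from striated muscle, had 1 count in T replicate 1 and 0 elsewhere. In all, 7 genes averaged under 100 CPM, namely Rps9, Rps15a, Rplp2, Rpl39l, Rpl8, Rps6 and Rpl37a.

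Runs of pyrimidines were present among genes that fell, rose or were not called. In LPE against T a run of at least 8 was present in 28 of 39 matched genes that fell, in 14 of 20 that were not called and in the 1 matched gene that rose. In CPE against T it was present in 27 of 38 that fell, 14 of 18 not called and 2 of 4 that rose. Rpl11 fell without such a run at its annotated start, and Rps28 and Rpl19 rose with one.

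Some ribosomal protein genes have names outside the pattern. Of the 6 tested, 4 fell and 1 rose in LPE against T, and 3 fell and 0 rose in CPE against T, where of all genes tested 14.7% and 15.3% fell. Rpsa, the small subunit protein that is also called the laminin receptor, had 2419 ± 42.7 CPM in T against 1229 ± 87.7 in LPE and 1168 ± 82.9 in CPE. It was 1.97-fold lower in LPE (edgeR adjusted p = 7.49e-07) and 2.07-fold lower in CPE (edgeR adjusted p = 3.07e-07). Fau, a fusion of a ubiquitin-like protein with a small subunit protein, was 3.23-fold lower in LPE (edgeR adjusted p = 0.00267) and 3.09-fold lower in CPE (edgeR adjusted p = 0.00299), from 46.1 ± 11.9 CPM in T.

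The paralog of Rpl36a moved opposite to it and that of Rps4x moved with it. Rpl36al had 122, 118 and 144 CPM in T, 187, 210.4 and 184 in LPE, and 127 ± 28.5 in CPE, and was highest in LPE, where Rpl36a was lowest. Rpl36al was 1.51-fold higher in LPE than in T (edgeR adjusted p = 0.0175) and fell 1.53-fold from LPE to CPE (edgeR adjusted p = 0.0212). Rps4y2 followed Rps4x, 1.59-fold lower in LPE than in T (edgeR adjusted p = 0.00145) and 1.51-fold higher in CPE than in LPE (edgeR adjusted p = 0.00562). Reads shared between such near-identical genes enter neither, so the split within a pair is uncertain.

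Among genes that serve the ribosome in other ways, calls against T went in both directions. The counts of the lists below stand beside the shares of all genes tested, which were 15% higher and 14.7% lower in LPE against T, 16.8% and 15.3% in CPE against T, and 9.56% and 8.23% in CPE against LPE. Many listed genes reach 100 CPM, and among all genes of at least that level the shares were larger. They were 26.2% higher and 27.8% lower in LPE against T, 27.9% and 29.5% in CPE against T, and 16.3% and 15.3% in CPE against LPE. Of 20 translation factors and other genes with 5′ TOP mRNAs, 8 rose and 7 fell in LPE against T, and 9 rose and 5 fell in CPE against T (median log2 fold changes -0.07 and 0.03). Eef2, the translocase of elongation, rose from 2417 ± 68.8 CPM in T to 6661 ± 344 in LPE (2.76-fold, edgeR adjusted p = 2.17e-09) and 7305 ± 186 in CPE (3.02-fold, edgeR adjusted p = 6.18e-10). Eef1d, a subunit of the exchange factor of eEF1A, rose 3.40-fold in LPE (edgeR adjusted p = 1.11e-06), and Pabpc1, the poly(A)-binding protein, rose 3.34-fold in CPE (edgeR adjusted p = 1.65e-08).

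Eef1b2, another subunit of that exchange factor, fell, with 1296, 1122 and 1148 CPM in T, 790.5, 692 and 813 in LPE, and 228, 256 and 234 in CPE. The media did not overlap, and the fall from T was 1.55-fold in LPE (edgeR adjusted p = 0.000217) and 4.97-fold in CPE (edgeR adjusted p = 1.42e-09). In CPE against LPE, 5 of the 20 rose and 2 fell, among them Tpt1, which was 1.70-fold higher in CPE (edgeR adjusted p = 2.22e-05).

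Of 38 ribosome assembly factors tested, 8 rose and 6 fell in LPE against T, 4 rose and 16 fell in CPE against T, and 0 rose and 13 fell in CPE against LPE. In shares, 21.1% rose and 15.8% fell in LPE, 42.1% fell in CPE against T and 34.2% fell in CPE against LPE. In CPE against LPE the median of these 38 was -0.33 (log2), while that of the 76 ribosomal protein genes was 0.00. Rrp9, a protein of the U3 snoRNP that processes pre-rRNA, had 169.5 ± 5.33 CPM in T against 91.2 ± 12.3 in LPE and 35.3 ± 8.15 in CPE. Rrp9 fell 2.57-fold from LPE to CPE (edgeR adjusted p = 0.000219). Ncl, which encodes nucleolin, fell 2.20-fold from LPE to CPE (edgeR adjusted p = 0.00168) and 3.09-fold from T to CPE (edgeR adjusted p = 3.74e-05). Nolc1, a nucleolar phosphoprotein, rose 3.55-fold in LPE (edgeR adjusted p = 2.28e-06) and 3.89-fold in CPE (edgeR adjusted p = 9.81e-07).

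The RNA polymerase I list, which makes pre-rRNA, had 2 of 13 genes higher and 2 lower in LPE against T, 1 and 2 in CPE against T, and 1 and 1 in CPE against LPE. Polr1e rose 2.34-fold in LPE (edgeR adjusted p = 0.0048) and was not called in CPE against T (edgeR adjusted p = 0.134). Cd3eap fell 1.94-fold in LPE (edgeR adjusted p = 0.00808) and 1.93-fold in CPE (edgeR adjusted p = 0.00767). Znrd1 fell 1.99-fold in LPE (edgeR adjusted p = 0.00951). In the mTORC1 and Larp list, 5 of 13 rose and 2 fell against T in each serum-free medium. Rheb, the small GTPase that activates mTORC1, rose 2.43-fold in LPE (edgeR adjusted p = 0.000168) and by a log2 fold change of 1.59 in CPE (edgeR adjusted p = 1.92e-05). Tsc2, named after its values were seen, also rose, 1.86-fold in LPE (edgeR adjusted p = 0.00988) and 1.71-fold in CPE (edgeR adjusted p = 0.0203). The list was not split by whether a gene raises or lowers mTORC1 activity, so its counts give no direction for the pathway. Eif4e, which binds the mRNA cap, fell 1.71-fold in LPE (edgeR adjusted p = 0.000123) and 1.95-fold in CPE (edgeR adjusted p = 1.41e-05). The activity of mTORC1 was not measured.

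Among 8 transcription factors known at ribosomal protein promoters, 1 rose and 2 fell in LPE against T, 1 rose and 5 fell in CPE against T, and 0 rose and 4 fell in CPE against LPE. Myc had 27.3, 34.7 and 29.3 CPM in T, 41.6, 60.3 and 56.4 in LPE, and 11.2, 14.3 and 10.6 in CPE. It was lowest in CPE without overlap, 4.35-fold below LPE (edgeR adjusted p = 0.000188) and 2.51-fold below T (edgeR adjusted p = 0.00387), and its difference between LPE and T was not called (edgeR adjusted p = 0.0561). Mycn was 1.48-fold lower in LPE (edgeR adjusted p = 0.0318) and 2.41-fold lower in CPE (edgeR adjusted p = 0.000103) than in T. Gabpa was also called lower than in T in both serum-free media, while Sp1 was called higher in both. E2f1 fell 5.25-fold from T to CPE (edgeR adjusted p = 9.26e-05), and Max was called lower there too. Gas5, a host of snoRNAs with a 5′ TOP transcript that encodes no protein, was 1 of 2 snoRNA host genes tested. Against T it was 1.75-fold higher in LPE (edgeR adjusted p = 0.000319) and 1.29-fold higher in CPE (edgeR adjusted p = 0.0452). CPE was 1.35-fold below LPE (edgeR adjusted p = 0.0308).

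**Figure D5:**
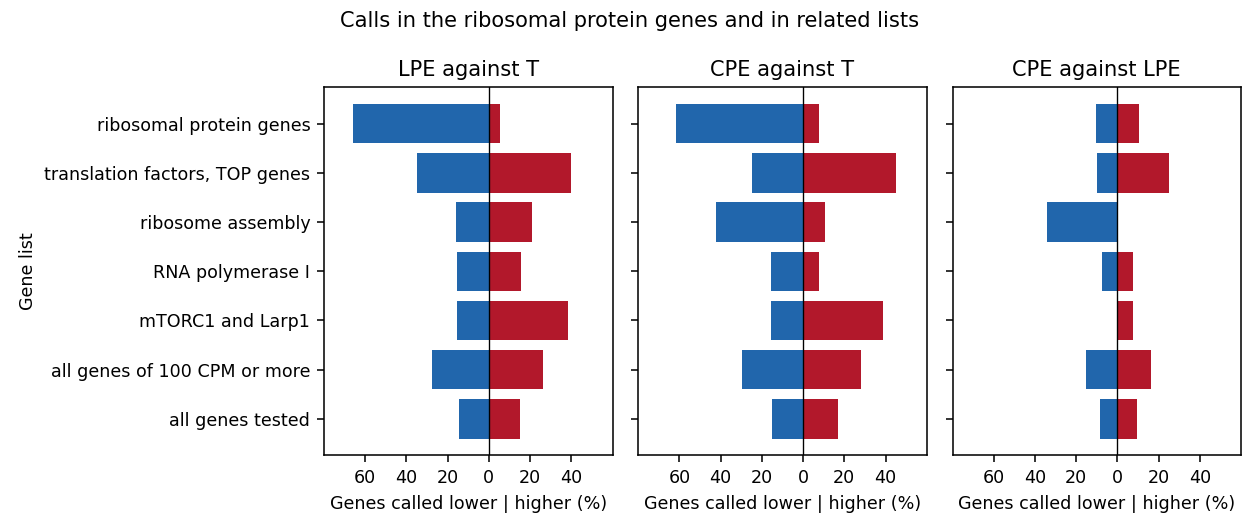
Percent of the genes in each list called lower (blue, to the left) and higher (red, to the right) at an edgeR adjusted p under 0.05, for the 76 ribosomal protein genes, 4 related lists, all 2292 genes of at least 100 CPM and all 9130 genes tested. The ribosomal protein bar lies mostly on the lower side in both comparisons with T, at 65.8% in LPE. The assembly factors have more higher than lower calls in LPE against T. They have more lower than higher calls in CPE against T, and no higher calls in CPE against LPE.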

How the data were processed

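The submitters' protocols describe rRNA-depleted total RNA, a directional kit and paired sequencing, and the submitters' processing notes name build rn6 with STAR 2.5.1, Trimmomatic 0.33, CASAVA 1.8.2 and DESeq2. For the annotation, nothing is given in the sources used here. The deposited tables hold the authors' raw read counts per gene for either strand and for each strand; the gene-strand column was used. Their 4 summary lines (unmapped, multi-mapping, outside genes, ambiguous) stayed out of library sizes and tests.

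The test was that of edgeR 4.0.16 under R 4.3.3 (quasi-likelihood F test, TMM factors, filterByExpr with at least 10 counts, all 9 libraries, a mean per medium), adjusted by Benjamini-Hochberg over 9130 genes. CPM use the TMM factors, and values are mean ± SD of 3 libraries. The method was tested on simulated data. DESeq2 1.42.0, other size factors, filters, strand counts, fits of the compared media alone, a replicate block, leave-one-out fits and scaling to the ribosomal protein counts were tried.

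The genes and lists were chosen with earlier results of these data known. Named were the 4 largest called rises and falls of each comparison, stalk proteins, paralogs, Rpl5, Rpl11, Rps6, Rps19, Rpl10, Rpl38, and up to 2 called rises and falls of a list. Of the genes so chosen, 1 is not reported here and stays in the counts. Rps2 and Rpl4 were added for their sequence. Rpl10l was not used here. Levels per coding length were planned but not computed, so levels of different genes are not compared. Of the 76 symbols, 75 are in the RefSeq gene table of GRCr8, a build other than that of the counts.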

Additional observations from a re-analysis of the deposited data

Results flagged for a closer look

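Rps4x was singled out because its change against T went in opposite directions in the serum-free media. It stood at 1062 ± 47.4 CPM in T against 813 ± 37.4 in LPE and 1253 ± 51.3 in CPE (SD, n = 3 each), so that all 3 LPE libraries were below T and all 3 CPE libraries above it. The test of the difference itself, CPE against LPE, gave a log2 fold change of 0.62 (edgeR adjusted p = 0.000118). Both changes are measured against the same T libraries, and the rise above T in CPE (0.24, edgeR adjusted p = 0.0445) is lost in 5 of 6 leave-one-out fits. It is also lost with no filter on low counts (edgeR adjusted p = 0.105), with either-strand counts (0.051) and under the replicate block (0.0529). Reads that Rps4x shares with its copies enter no gene, and the part this has in the difference was not tested. Rps4x is also on the X chromosome, where tested genes had a median log2 fold change of 0.66 in CPE against LPE. The part of this was not tested either.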

How the results depend on the processing

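The medians and calls against T kept their direction under DESeq2, its size factors, TMM without the ribosomal protein genes, no filter, either-strand counts and fits of the compared media alone. Scaling to the ribosomal protein counts, chosen for the counts of calls after seeing the data, gave 15 higher and 14 lower in both comparisons with T, with medians of 0.0245 in LPE and -0.0437 in CPE, since it removes their shared change. As a share of all reads the genes had 0.667% in T, 0.668% in LPE and 0.744% in CPE. Without 1 library at a time, the genes called lower were 37 to 51 in LPE and 40 to 51 in CPE against T. For CPE against LPE 5 to 8 were higher and 3 to 6 lower, the fewest higher without LPE replicate 3 and the fewest lower without CPE replicate 2. Of the called genes 40 of 54, 44 of 53 and 7 of 16 (LPE against T, CPE against T, CPE against LPE) held in all leave-one-out fits, and 0 reversed.

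Uncalled log2 fold changes that changed sign without 1 library ranged, in CPE against T, from -3.19 to 0.0749 for Rplp2 (0.0072 without T replicate 2) and from -0.2385 to 0.0728 for Rpl22. In LPE against T they ranged from -0.177 to 0.0027 for Rpl19 and from -0.1729 to 0.0058 for Rpl10. In CPE against LPE the ranges were -0.0525 to 0.019 for Rpl11 (0.0057 and 0.0042 without LPE replicate 1 and CPE replicate 2), -0.0437 to 0.1055 for Rps27, -0.0215 to 0.1662 for Rps27l and -0.1467 to 0.9181 for Rps6 (-0.1312 without LPE replicate 2).

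Same-numbered libraries deviated together with r of -0.0283 to 0.0100 across genes, so the numbers were not taken as pairs. With the replicate block 2558, 2751 and 1500 genes were called (LPE against T, CPE against T, CPE against LPE), beside 2716, 2928 and 1624, and the ribosomal protein genes gave 4 higher and 49 lower, 5 and 47, and 7 and 7. Low counts limit 7 genes under 100 CPM, and 1 count was worth 0.226 to 0.589 CPM before TMM factors.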

Other observations

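After the values were seen, the 4 ribosomal protein genes that the promoter table places on the X chromosome, Rpl10, Rpl36a, Rpl39 and Rps4x, were set beside the other 56 with a known chromosome. In CPE against LPE all 4 were called, 3 higher and 1 lower, while 11 of the other 56 were called (19.6%). Tested genes on the X chromosome showed a similar tilt in the whole table. Of 222, 75 were called higher and 11 lower in CPE against LPE, with a median log2 fold change of 0.66, beside 589 higher and 584 lower of 6830 genes elsewhere, with a median of -0.01. In LPE against T, 10 of the 222 were called higher and 78 lower, with a median of -0.49, beside 1068 higher and 974 lower elsewhere, with a median of -0.02. In CPE against T, 38 were higher and 27 lower, with a median of 0.10. The comparisons share libraries, the set was chosen for its values, and no test was made of it.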
